A study of Drosophila melanogaster with 16 samples.

Results

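The *sei* (*seizure*) gene encodes the fly homologue of the hERG potassium channel, and *KCNQ* encodes the fly member of the KCNQ potassium channel family. In heart muscle both channels pass outward potassium current that ends the action potential, the hERG type with a rapid component and the KCNQ type with a slow one. In people, loss of function of either kind of channel delays cardiac repolarization and is a known cause of long QT syndrome. The comparison described here asks in which heart transcripts loss of one channel had another effect than loss of the other. It is a difference of differences on the log2 scale: (*sei* mutant minus its control) less (*KCNQ* mutant minus its control). A positive value means that a transcript was raised more, or lowered less, in *sei* mutants than in *KCNQ* mutants, each against its own control. It used all 16 of the 16 arrays of the series and 18769 of their 18952 probesets, leaving out only the 183 platform controls.

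The 4 groups were *sei* mutants (labelled seits1, n = 5), the Canton-S control (Wt CS, n = 5), *KCNQ* mutants (n = 3) and the *KCNQ* control (Wt PE, labelled KCNQ97, n = 3). The *sei* allele came from a chemical mutagenesis screen and carries an early stop. The *KCNQ* mutant is an imprecise excision of a P element, and Wt PE is a precise excision from the same work, kept in the white-eyed w1118 background. The mutant's label reads KCNQ37, without the last digit that its allele has in the methods. Each array was hybridised with RNA of 30 pooled hearts from flies aged 3 weeks, after fat and tracheoles had been sucked away. The sexes were kept apart, but which sex was used for the arrays is not given in the sources used here. Canton-S and the excision lines are different strains, and with 1 line for each genotype a mutation and the rest of its line's genome cannot be told apart. The tissue is bulk, so fewer cells of a type and less RNA per cell cannot be told apart either.

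Values are log2 of the deposited RMA intensities, and effects carry a standard error (SE) from limma fitted to all probesets. The median intensity of an array was 10.2 to 12.3, and arrays of 1 group correlated at 0.938 to 0.991 over probesets. By their names the arrays fall into 3 runs. Every *KCNQ* and Wt PE array and replicates 4 and 5 of *sei* and Wt CS belong to run A, replicates 1 and 2 of Wt CS to run B, and the other 4 arrays of that pair to run C. Sample codes repeat between *sei* replicates 2 and 5, between *sei* replicates 3 and 4, and between Wt CS replicates 2 and 3. If arrays of 1 code share an RNA, part of the spread behind the p-values is technical. Replicates of *sei* and Wt CS also scattered more, with a median SD of 0.40 and 0.41, than those of *KCNQ* and Wt PE, with 0.22 each. The heart factor *Hand* was bright in every group, at a mean of 11.96 in *sei*, 12.18 in Wt CS, 12.28 in *KCNQ* and 12.24 in Wt PE hearts, while the probeset of *prc*, a collagen-like protein of the cardiac matrix, was dim, at 1.80 in *sei*, 1.64 in Wt CS, 1.84 in *KCNQ* and 1.70 in Wt PE hearts. The early heart genes *Doc1* and *Doc2* were dim too, with group means of 2.59 or less.

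The effects of the 2 mutations differed for 260 probesets, 1.39% of those tested, by limma at an adjusted p under 0.05. Of these, 137 were higher (0.73%) and 123 lower (0.655%) in the *sei* effect than in the *KCNQ* effect. For scale, 2089 probesets (11.1%) were called between *sei* and Wt CS, 32 (0.17%) between *KCNQ* and Wt PE, and 689 (3.67%) between Wt PE and Wt CS. The *sei* effect alone was called for 232 of the 260, the *KCNQ* effect alone for 15, both for 6 and neither for 7. Where both were called they had opposite signs in all 6. These counts were not made at equal precision. The *KCNQ* pair had 3 arrays a group and the *sei* pair 5, and the fit used a spread shared by all groups. Over the 260, the *sei* effect was the larger in size for 220 and the *KCNQ* effect for 40, and the 2 effects pointed opposite ways for 187. Choosing large differences by itself favours opposite signs, and the *KCNQ* effect was under 0.5 in size for 153 of the 260. The count of opposite signs is therefore a description only. The called differences had a median size of 2.43 and the smallest was 0.98. The median over all probesets was -0.01. A single difference had a median SE of 0.40 and its 95% interval a median half-width of 0.85, so a difference of 1 was seldom called. All 260 kept their sign in each of 28 other ways of fitting that tested them, and 57 were called in every one. The count was 425 without *sei* replicate 5, 459 with array run as a covariate and 88 without the 3 arrays highest in accessory gland transcripts (Wt PE replicates 1 and 2 and *KCNQ* replicate 2).

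**Figure D1:**
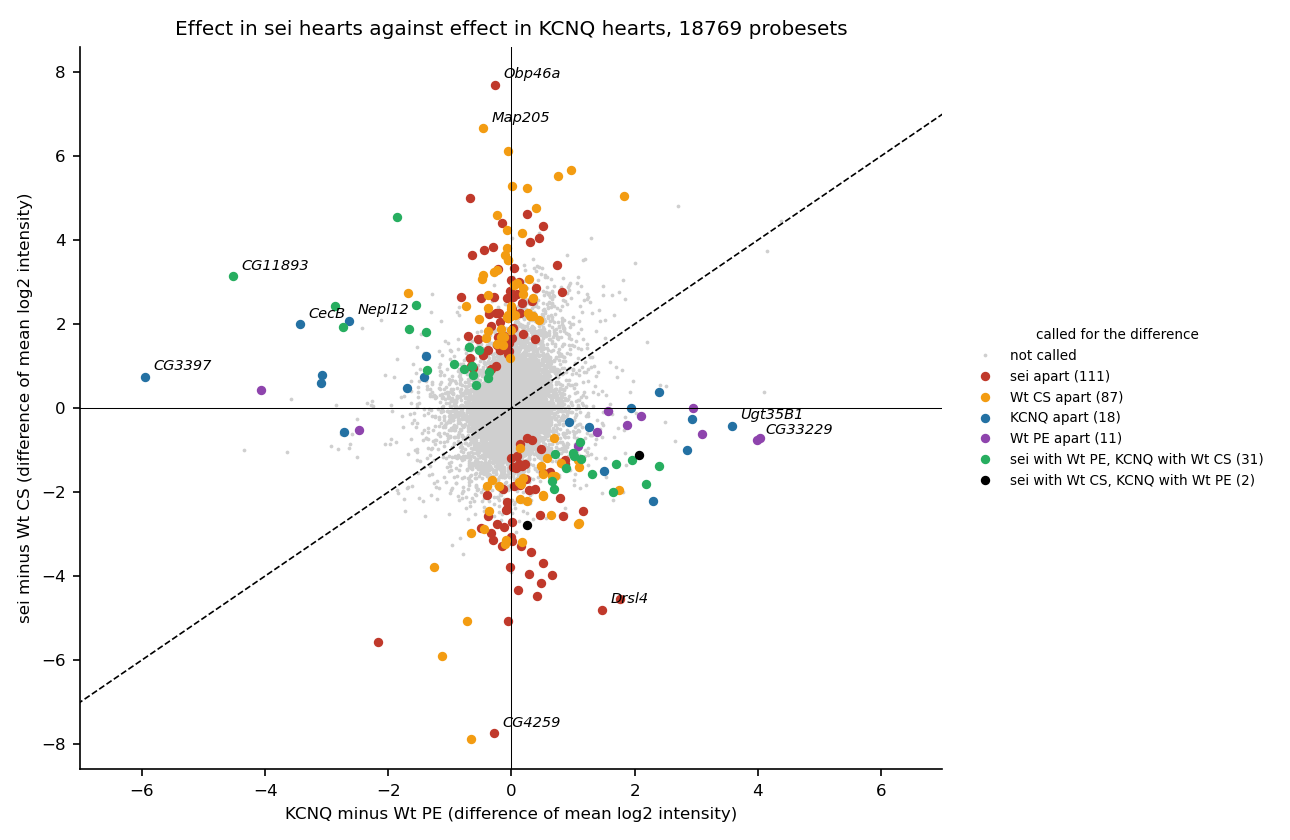
Each point is a probeset, with its *KCNQ* effect on the horizontal axis and its *sei* effect on the vertical axis, both as differences of mean log2 intensity; the dashed line marks equal effects and colours give the group that stands apart among the 260 called. Most coloured points lie near the vertical axis, where the *sei* effect is large and the *KCNQ* effect is small. Effects of opposite sign (187 of the 260) are favoured by the choice of large differences.

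A difference of this kind can come from any of the 4 groups. For each probeset the 4 group means were therefore put in order and the widest gap between neighbours was found. Among the 260, *sei* hearts stood apart from the other 3 groups for 111 (42.7%, against 30.8% of all probesets). Wt CS hearts stood apart for 87 (33.5%, against 20.0%), *KCNQ* hearts for 18 (6.92%, against 10.7%) and Wt PE hearts for 11 (4.23%, against 10.3%). For 31 the gap lay between *sei* and Wt PE on one side and Wt CS and *KCNQ* on the other (11.9%, against 4.73%). The remaining 2 had *sei* and Wt CS on one side. No array crossed the gap for 101 of the 111, 76 of the 87, 14 of the 18, 10 of the 11 and 18 of the 31, while over all probesets this held for 7.68%. Of the 87 where Wt CS stood apart, 82 were also called between Wt PE and Wt CS, against 7 of the 111 where *sei* stood apart. These shares are descriptions, since the classes rest on the same arrays as the calls.

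The largest difference of all was in *Obp46a*, which encodes a member of the odorant-binding protein family. Its log2 intensity was 9.86, 10.07, 10.03, 9.33 and 9.39 in *sei* hearts, against 1.99, 2.11, 2.13, 1.91 and 2.0 in Wt CS hearts, and 2.33, 2.02 and 1.75 in *KCNQ* hearts, against 2.34, 2.44 and 2.13 in Wt PE hearts. All *sei* arrays lay far above every array of the other groups, which lay between 1.75 and 2.44. The difference was 7.97 ± 0.29 (adjusted p = 2.06e-10). *CG4259*, of the serine protease family, showed the opposite picture, with 1.31, 1.97, 1.68, 2.41 and 1.69 in *sei* hearts, against 10.13, 9.86, 9.43, 9.31 and 9.04 in Wt CS hearts. It stayed high in the other pair, with 8.87, 9.09 and 9.33 in *KCNQ* hearts, against 8.94, 9.10 and 10.10 in Wt PE hearts, so the *sei* arrays alone were low. Its difference was -7.46 ± 0.44 (adjusted p = 9.7e-08).

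*Zip102B* encodes a zinc transporter and lies on chromosome 4. Its values were 2.30, 2.28, 2.31, 4.24 and 4.13 in *sei* hearts, against 8.68, 8.96, 7.57, 7.92 and 7.54 in Wt CS hearts, and 8.20, 8.34 and 8.40 in *KCNQ* hearts, against 8.26, 8.38 and 8.47 in Wt PE hearts. The *sei* arrays were low throughout, but those of run A (replicates 4 and 5) sat above those of run C, and the difference was -5.02 ± 0.67 over all arrays (adjusted p = 0.000638) and -3.49 within run A. *Drsl4*, a relative of the antifungal peptide drosomycin, had 4.69, 5.29, 4.91, 5.37 and 5.62 in *sei* hearts, against 10.97, 10.33, 8.91, 9.88 and 9.81 in Wt CS hearts. In the other pair it had 11.07, 11.18 and 11.21 in *KCNQ* hearts, against 9.22, 9.29 and 10.53 in Wt PE hearts, with no *sei* array reaching any array of another group. The *sei* effect was -4.80 ± 0.34 and the *KCNQ* effect 1.48 ± 0.43, and the difference -6.28 ± 0.55 (adjusted p = 7.26e-06).

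*RFeSP* encodes the Rieske iron-sulfur protein of respiratory complex III and has 2 probesets that gave different answers. The dimmer one was low in *sei* hearts only, at 3.13, 3.39, 3.39, 3.84 and 2.83 in *sei* hearts, against 7.77, 7.54, 8.36, 7.32 and 7.22 in Wt CS hearts, and 7.94, 8.0 and 7.97 in *KCNQ* hearts, against 7.48, 7.87 and 8.26 in Wt PE hearts. Its difference was -4.43 ± 0.39 (adjusted p = 7.26e-06), whereas the brighter probeset gave 0.68 (adjusted p = 0.768). What makes the 2 probesets differ was not tested, and a level of the whole transcript cannot be read from the dimmer one. *lectin-24A*, for a sugar-binding protein of the immune response, was 6.54, 4.42, 6.01, 8.89 and 8.86 in *sei* hearts, against 2.46, 1.59, 1.23, 1.66 and 2.81 in Wt CS hearts. The *KCNQ* pair stayed low, with 2.01, 2.61 and 2.25 in *KCNQ* hearts, against 3.26, 3.38 and 2.25 in Wt PE hearts. No *sei* array overlapped another group, and run A arrays were again the highest within *sei*, for a difference of 5.67 ± 1.11 (adjusted p = 0.0134).

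Others with *sei* hearts apart were *CG15239* at -4.90 ± 0.65 (adjusted p = 0.00066) and *CG7203* at -4.21 ± 0.55 (adjusted p = 0.000632), both low in *sei* hearts, with no role named here. The long non-coding RNA *lncRNA:CR30121* was at 1.43 ± 0.35 in *sei* hearts and 5.98 ± 0.82 in Wt CS hearts (SD, n = 5 each), and at 5.69 ± 0.80 in *KCNQ* hearts and 3.92 ± 0.87 in Wt PE hearts (SD, n = 3 each). Its *KCNQ* effect of 1.77 ± 0.52 was not called (adjusted p = 0.651), and the difference was -6.32 ± 0.66 (adjusted p = 5.47e-05).

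**Figure D2:**
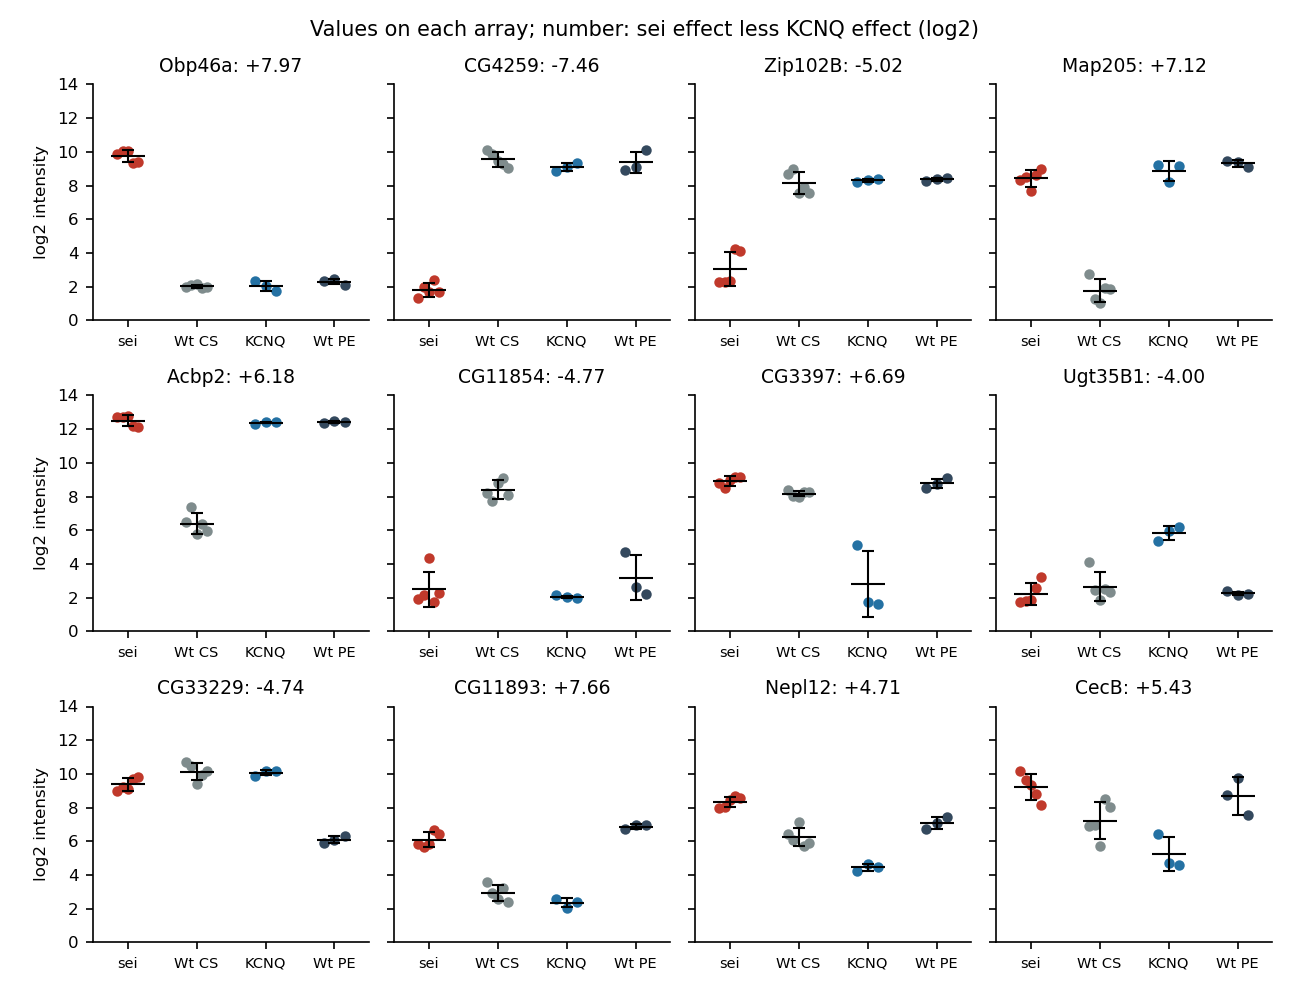
Log2 intensity of 12 genes on each of the 16 arrays, by group, with the mean and SD as black bars; the number in each title is the *sei* effect less the *KCNQ* effect. In the first 3 panels the *sei* arrays stand apart, in the next 3 the Wt CS arrays, then the *KCNQ* arrays for *CG3397* and *Ugt35B1* and the Wt PE arrays for *CG33229*, and in the last 3 the effects point opposite ways.

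In the second large class the odd group was the Canton-S control. *Map205*, for a protein that binds microtubules, had 8.31, 8.50, 7.68, 8.65 and 9.01 in *sei* hearts, against 2.74, 1.27, 1.04, 1.94 and 1.86 in Wt CS hearts. In the excision lines it was 9.21, 8.19 and 9.17 in *KCNQ* hearts, against 9.45, 9.41 and 9.10 in Wt PE hearts. Only the Wt CS arrays were low, so a positive *sei* effect stood beside a *KCNQ* effect of -0.46 ± 0.41, and the difference was 7.12 ± 0.52 (adjusted p = 1.41e-06). *Acbp2*, for an acyl-CoA-binding protein that carries activated fatty acids, gave 12.73, 12.72, 12.81, 12.17 and 12.14 in *sei* hearts, against 6.48, 7.37, 5.77, 6.39 and 5.93 in Wt CS hearts. It was 12.33, 12.40 and 12.43 in *KCNQ* hearts, against 12.36, 12.50 and 12.45 in Wt PE hearts, and again no array outside Wt CS came near the Wt CS arrays. The difference was 6.18 ± 0.41 (adjusted p = 5.09e-07).

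*Elovl7*, for an enzyme that lengthens fatty acids, was 8.33 ± 0.14 in *sei* hearts and 3.04 ± 1.86 in Wt CS hearts (SD, n = 5 each), with 0.00 for the *KCNQ* effect and a difference of 5.30 ± 1.01 (adjusted p = 0.0112). *Arpc1*, a subunit of the complex that branches actin filaments, had 9.34 ± 0.33 in *sei* hearts and 4.10 ± 0.87 in Wt CS hearts, and its difference was 4.98 ± 0.54 (adjusted p = 7.54e-05). For *CTCF*, a zinc finger protein that binds insulators, 2 of 3 probesets were called, at 4.82 ± 0.77 and 4.32 ± 0.61, and the third was at 1.24 (adjusted p = 0.45). On *sei* arrays the first *CTCF* probeset was at 6.76, 7.12 and 7.18 in run C but 4.43 and 4.49 in run A, and the difference within run A was 3.11. *Cyp6a2*, a cytochrome P450 that metabolises insecticides, differed by 4.77 ± 0.43 (adjusted p = 1.07e-05). Its mean was 7.94 ± 0.33 in *sei* hearts, 2.42 ± 0.53 in Wt CS hearts, 6.53 ± 0.29 in *KCNQ* hearts and 5.77 ± 0.51 in Wt PE hearts.

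*CG11854* and *CG31760* were high in Wt CS hearts alone. *CG11854* read 1.94, 2.15, 4.36, 1.73 and 2.27 in *sei* hearts, against 8.22, 7.74, 8.81, 9.13 and 8.08 in Wt CS hearts, and 2.13, 2.04 and 2.01 in *KCNQ* hearts, against 4.74, 2.63 and 2.21 in Wt PE hearts. Neither *sei* replicate 3 nor Wt PE replicate 1, which lay above their groups, reached a Wt CS array. The differences were -4.77 ± 0.82 (adjusted p = 0.00516) for *CG11854* and -4.36 ± 0.57 (adjusted p = 0.0006) for *CG31760*. Wt PE less Wt CS came to between 3.35 (*Cyp6a2*) and 7.55 (*Map205*) for the 6 genes just named as low in Wt CS, to -4.53 for *CG31760* and to -5.20 for *CG11854*. The part that the Canton-S strain has in these differences was not tested and cannot be told apart from that of *sei*.

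*KCNQ* hearts stood apart for 18 of the 260. *CG3397* was 8.78, 8.53, 9.0, 9.17 and 9.18 in *sei* hearts, against 8.37, 8.01, 7.99, 8.30 and 8.25 in Wt CS hearts, so that the arrays of that pair did not overlap, with *sei* the higher. It was 5.10, 1.77 and 1.65 in *KCNQ* hearts, against 8.52, 8.73 and 9.09 in Wt PE hearts, and *KCNQ* replicate 1 lay well above the other two while still under every array of the other groups. The *KCNQ* effect was -5.94 ± 0.61 (adjusted p = 0.000111) and the difference 6.69 ± 0.77 (adjusted p = 0.000155). *Ugt35B1* and *Ugt35C1* encode enzymes that attach sugars to small molecules, and both were high in *KCNQ* hearts. For *Ugt35B1* the values were 5.35, 5.98 and 6.18 in *KCNQ* hearts, against 2.37, 2.16 and 2.25 in Wt PE hearts, compared with a range of 1.75 to 3.24 in *sei* hearts and 1.89 to 4.14 in Wt CS hearts. Every *KCNQ* array lay above the rest, and the differences were -4.0 ± 0.61 (adjusted p = 0.00227) for *Ugt35B1* and -3.20 ± 0.54 (adjusted p = 0.0046) for *Ugt35C1*. *CG8539* was highest in *KCNQ* hearts and lowest in *sei* hearts, with a *sei* effect of -2.22 ± 0.35, a *KCNQ* effect of 2.31 ± 0.46 that was not called (adjusted p = 0.0647) and a difference of -4.53 ± 0.58 (adjusted p = 0.000481).

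Wt PE hearts stood apart for 11. *CG33229* read 9.88, 10.15 and 10.20 in *KCNQ* hearts, against 5.89, 6.10 and 6.29 in Wt PE hearts, and 8.98, 9.23, 9.10, 9.71 and 9.84 in *sei* hearts, against 10.68, 10.44, 9.42, 9.93 and 10.20 in Wt CS hearts. Only the Wt PE arrays were low, and the difference was -4.74 ± 0.38 (adjusted p = 5.28e-06). Its neighbour on chromosome 3L, the long non-coding RNA *lncRNA:CR42862*, was 11.45 ± 0.27 in *KCNQ* hearts and 7.42 ± 1.0 in Wt PE hearts (SD, n = 3 each), and its 3 probesets gave differences of -4.76, -3.71 and -2.31, all called. Of the called genes with 1 symbol, 11 of the 15 where *KCNQ* stood apart lay on chromosome 3R and 3 on 3L, and of the 9 genes where Wt PE stood apart 2 lay on 3R and 6 on 3L. *KCNQ* itself lies on chromosome 2R, which held 1 gene of each class. Of 11889 measured genes placed on a chromosome, 2974 lie on 3R, 2344 on 3L and 2428 on 2R. The classes were formed from the same values as the calls, and the placement of their genes was not tested.

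Opposite effects of the 2 mutations were largest in *CG11893*, one of the 31 probesets with *sei* and Wt PE on one side of the gap. *CG11893*, of the ecdysteroid kinase-like family, was 5.83, 5.66, 5.83, 6.68 and 6.45 in *sei* hearts, against 3.60, 2.92, 2.60, 3.24 and 2.41 in Wt CS hearts. In the other pair it was 2.58, 2.05 and 2.42 in *KCNQ* hearts, against 6.71, 6.95 and 6.95 in Wt PE hearts. The *sei* effect was thus 3.14 ± 0.25 and the *KCNQ* effect -4.52 ± 0.32, each with no overlap between mutant and control, and the difference was 7.66 ± 0.40 (adjusted p = 2.87e-08). *Nepl12*, where *KCNQ* hearts stood furthest from the rest, encodes a neprilysin-like peptidase, a family of enzymes at the cell surface or secreted that cut small peptides. It was 7.98, 8.04, 8.46, 8.67 and 8.55 in *sei* hearts, against 6.43, 6.09, 7.14, 5.70 and 5.92 in Wt CS hearts, and 4.24, 4.63 and 4.50 in *KCNQ* hearts, against 6.75, 7.08 and 7.45 in Wt PE hearts. Mutant arrays were all above control arrays in the *sei* pair and all below in the *KCNQ* pair, for a difference of 4.71 ± 0.41 (adjusted p = 7.26e-06). *CG33229*, *CG31199*, *CG31436* and *CG43117* were the other genes with both effects called; the last 3, picked after their values were seen, differed by -3.66 ± 0.34, 3.20 ± 0.27 and 4.66 ± 0.40.

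Other large differences with effects of opposite sign rested on more scattered arrays, and none of their *KCNQ* effects was called by itself. Besides *CecB*, these *KCNQ* effects were -2.86 ± 0.879 for *TotB*, -1.85 ± 0.865 for *CG5246* and 2.19 ± 0.652 for *Cpr49Ab*. *CecB* encodes cecropin B, an antibacterial peptide, and had 10.15, 9.64, 9.34, 8.78 and 8.16 in *sei* hearts, against 6.91, 6.95, 5.70, 8.49 and 8.07 in Wt CS hearts. In the excision lines it had 6.43, 4.71 and 4.61 in *KCNQ* hearts, against 8.75, 9.77 and 7.56 in Wt PE hearts. *sei* and Wt CS arrays overlapped, *KCNQ* and Wt PE arrays did not, and the *KCNQ* effect of -3.44 ± 0.72 was not called by itself (adjusted p = 0.0932). The difference was 5.43 ± 0.91 (adjusted p = 0.00432), but 3.63 within run A (adjusted p = 0.132) and 4.03 without the 3 accessory gland arrays (adjusted p = 0.257), not called in either. *TotB*, a Turandot peptide secreted under stress, was 3.78, 1.50, 5.59, 5.86 and 5.95 in *sei* hearts, against 2.95, 1.37, 1.96, 2.43 and 1.80 in Wt CS hearts. It was 2.70, 2.22 and 2.68 in *KCNQ* hearts, against 4.96, 4.86 and 6.36 in Wt PE hearts, and its difference of 5.29 ± 1.11 (adjusted p = 0.022) was called in 20 of 27 other fits. *CG5246*, of the trypsin family, differed by 6.41 ± 1.09 (adjusted p = 0.0049), with Wt PE arrays spread from 4.80 to 9.83. It was not called within run A, at 5.97 (adjusted p = 0.148), nor without the 3 accessory gland arrays, at 3.89 (adjusted p = 0.0905). *Cpr49Ab*, a cuticle protein, was 4.55 in *sei* hearts and 6.37 in Wt CS hearts, 6.09 in *KCNQ* hearts and 3.90 in Wt PE hearts on average, for a difference of -4.0 ± 0.82 (adjusted p = 0.0197), called in 23 of 28 other fits.

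Of the targeted genes, *sei* had 1 probeset, at 5.0, 4.76, 5.25, 5.19 and 3.89 in *sei* hearts, against 5.31, 5.84, 5.94, 6.03 and 5.75 in Wt CS hearts, and 5.10, 5.36 and 5.71 in *KCNQ* hearts, against 5.66, 5.45 and 6.08 in Wt PE hearts. All *sei* arrays lay below all Wt CS arrays, and *sei* replicate 5 was the lowest of the 16. Its own effect was -0.96 ± 0.25 (adjusted p = 0.0212), but the difference from the *KCNQ* effect of -0.34 ± 0.32 was -0.62 ± 0.41 and was not called (95% interval -1.48 to 0.24, adjusted p = 0.685). *KCNQ* had no probeset of its own with 1 symbol and is not analysed here. Among 20 potassium channel genes with a probeset none was called, against 1.39% of all probesets, and their median difference was -0.35. The 2 with an unadjusted p under 0.05 were the 2-pore leak channel gene *sand*, at 1.79 ± 0.62 (95% interval 0.47 to 3.12), and the inward rectifier *Irk3*, at 1.14 ± 0.39. *Irk3* was dim in all groups, with means of 2.52 in *sei* and 2.39 in Wt CS hearts.

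No measured gene of the heart's contractile apparatus passed. None of 30 sarcomere genes was called, against 1.39% of all probesets, and at that share a list of this size may hold no call. Their median difference was -0.0015, with 15 above and 15 below 0. The myosin light chain *Mlc1* differed by -0.25 ± 0.27, the Z-disc gene *Zasp52* by -0.04 ± 0.24, troponin T (*up*) by 0.63 ± 0.55 and paramyosin (*Prm*) by -0.32 ± 0.33. The formin *DAAM*, which assembles actin, was at -1.21 ± 0.50 (95% interval -2.28 to -0.14) and the muscle kinase and titin-like gene *Strn-Mlck* at 1.34 ± 0.59, the only sarcomere genes with an unadjusted p under 0.05. The 95% intervals of *Mlc1* (-0.83 to 0.33) and *Zasp52* (-0.55 to 0.47) exclude a difference of 1, while that of *up* (-0.54 to 1.79) does not. Genes that lacked a probeset with a single symbol, the myosin heavy chain gene among them, are not analysed here. By itself the *sei* effect was called for 3 of the 30 sarcomere genes and the *KCNQ* effect for 0. The study reported several sarcomere genes as lower in *sei* but not *KCNQ* hearts, most of them under its fold limit. It also found lower myosin heavy chain in *sei* hearts by qPCR.

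Of 19 cardiac transcription factor genes none was called, against 1.39% of all probesets. The GATA factor *pnr* was at -0.90 ± 0.31 and the islet homologue *tup* at -1.08 ± 0.37, both with an unadjusted p under 0.05, while *Hand* was at -0.25 ± 0.22 and *H15* at -0.24 ± 0.41. Among 23 genes of inward current and calcium handling none was called, against the same share, with a median of -0.44 that was -0.07 within run A. The calcium pump *SERCA* was at -0.04 ± 0.31 and the ryanodine receptor *RyR* at 0.27 ± 0.34. *nrv3*, a sodium pump beta subunit of neurons, was at -3.03 ± 0.72 without passing (adjusted p = 0.0509). The summed intensity of 14 neuronal marker genes, *nrv3* among them, was 197 to 466 on the *sei* arrays and 737 to 1160 on the Wt CS arrays, 394 to 641 on the *KCNQ* arrays and 415 to 848 on the Wt PE arrays, and its part in these values was not tested.

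Wnt proteins are secreted signals that act through Frizzled receptors, and fly heart formation depends on Wingless. Of 21 Wnt genes with a probeset 3 were called, all lower in the *sei* effect, against 0.655% of all probesets. The study itself named this pathway from these arrays, so the list is no independent evidence. Beyond the arrays, the study reported lower *APC* in *sei* hearts by qPCR. It also reported slower beating and lower fractional shortening in *sei* and *pygo* double heterozygotes than in single ones. The 3 genes called here were *por* (porcupine), whose enzyme adds the lipid that Wnt proteins need, *wls* (wntless), which carries them to the cell surface, and *gish*, a casein kinase gene. *por* was 6.37, 6.14, 5.93, 6.84 and 6.68 in *sei* hearts, against 8.87, 8.52, 8.10, 8.53 and 8.29 in Wt CS hearts. In the excision lines it was 8.59, 8.35 and 8.47 in *KCNQ* hearts, against 8.90, 8.77 and 8.91 in Wt PE hearts. Each *sei* array was below all others, and the difference was -1.68 ± 0.31 (adjusted p = 0.00908). *wls* differed by -1.46 ± 0.28 (adjusted p = 0.0134) and likewise had no *sei* array reaching another group, but by -0.96 within run A, where it was not called (adjusted p = 0.133). *gish* was lowest in *sei* hearts at 8.20 ± 0.26 and highest in Wt CS hearts at 9.95 ± 0.41 (SD, n = 5 each), for -1.89 ± 0.36 (adjusted p = 0.0105). The negative feedback gene *nkd* was at -1.90 ± 0.67 (adjusted p = 0.258), the scaffold *Axn* at -0.29 ± 0.30 and the corepressor *CtBP* at -0.59 ± 0.30, none called. The list's median was -0.31, and 18 of 21 lay below 0. The genes for Wingless, its Frizzled receptors, Armadillo and Pygopus are among the 23 of the list not analysed here.

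**Figure D3:**
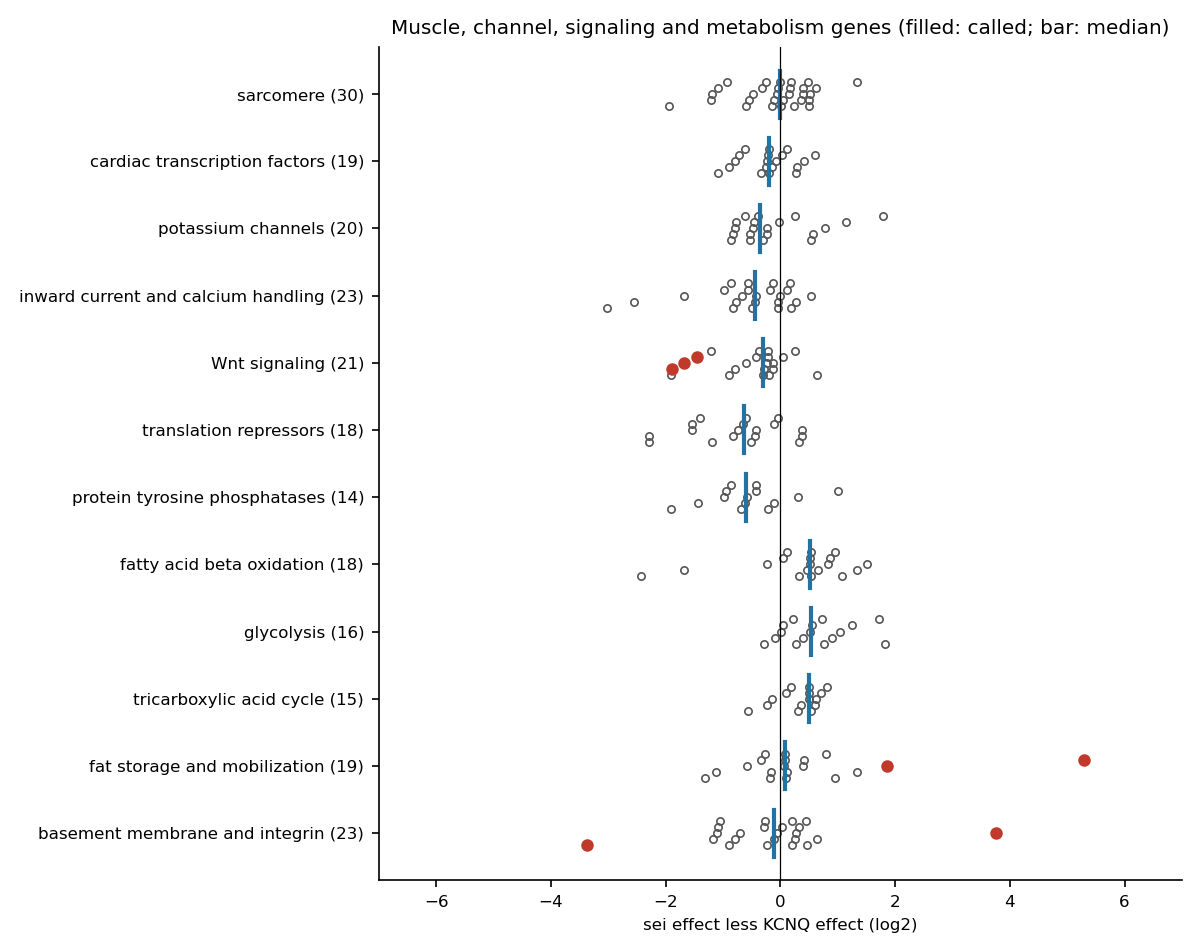
The *sei* effect less the *KCNQ* effect (log2) for each gene of 12 lists, with the number of genes in brackets; filled red points are called over all probesets, open points are not, and blue bars are medians. Filled points appear for 3 Wnt genes, 2 fat storage genes and 2 basement membrane or integrin genes, and the sarcomere points centre on 0.

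Repression of translation and protein phosphatases are categories the study also named from these arrays. The lists of translation repressors and of protein tyrosine phosphatases, one kind of protein phosphatase, leaned below 0 with no call. Over all probesets 1.39% were called. For 18 repressors the median was -0.63 and 15 were below 0. *brat*, which silences messenger RNAs with Pumilio, was at -2.29 ± 0.71 and *pum* itself at -1.53 ± 0.62, both with an unadjusted p under 0.05. *BicC* was at -2.28 ± 0.93, and it is also an ovary marker: the summed intensity of 18 ovary and germline genes was 298 to 1740 on *sei* arrays and 1100 to 6370 on Wt CS arrays, and its part in this value was not tested. For 14 phosphatase genes the median was -0.59, and 0.05 within run A. *IA-2*, of dense-core vesicles, was lowest at -1.91 ± 0.51 (adjusted p = 0.089), and *Ptp52F* highest at 1.01 ± 0.39.

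Genes of energy metabolism leaned the other way, also with no call in 3 lists, against 1.39% of all probesets. The median difference was 0.52 for 18 genes of fatty acid beta oxidation, 0.53 for 16 of glycolysis and 0.50 for 15 of the tricarboxylic acid cycle, with 15, 14 and 12 of them above 0. Their median *KCNQ* effects were 0.00, -0.03 and -0.01. Within run A the medians of the difference were 0.28, 0.17 and 0.15. At an unadjusted p under 0.05, 5 beta oxidation genes were higher and 2 lower, and the lowest gene of that list was at -2.42. Glycolysis had 4 higher and 0 lower, and the tricarboxylic acid cycle 0 higher and 1 lower. *Echs1*, for enoyl-CoA hydratase, was at 1.52 ± 0.59 (adjusted p = 0.331), *colt*, for a carnitine carrier, at 1.33 ± 0.55 and the hexokinase gene *Hex-C* at 1.83 ± 0.80. Of 19 genes of fat storage and mobilization 2 were called higher, against 0.73% of all probesets: *Elovl7* and *AkhR*, the receptor of the fat-mobilizing adipokinetic hormone. *AkhR* was 10.47, 10.52, 10.17, 9.59 and 9.60 in *sei* hearts, against 8.26, 8.37, 8.59, 8.29 and 8.37 in Wt CS hearts, and 9.18, 9.28 and 9.26 in *KCNQ* hearts, against 9.46, 9.44 and 9.31 in Wt PE hearts. *sei* arrays were the highest and Wt CS arrays the lowest with no overlap, for 1.86 ± 0.31 (adjusted p = 0.00414); a second, dimmer probeset gave -0.05. The fat body markers summed to 9310 to 14100 on *sei* arrays and 5550 to 11700 on Wt CS arrays, 6010 to 8030 on *KCNQ* arrays and 6490 to 8700 on Wt PE arrays, over 8 genes with *AkhR* among them, and their part in the *AkhR* value was not tested.

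Cytochrome P450 enzymes oxidise toxins, hormones and fatty acids, and 11 of their 81 genes were called, 8 higher and 3 lower, against 0.73% and 0.655% of all probesets. The list median was 0.06, so the changes went both ways around 0. After *Cyp6a2*, those with the smallest p were *Cyp309a2* at 4.01 ± 0.47 (adjusted p = 0.000177), low in Wt CS hearts alone, *Cyp9b1* at -4.23 ± 0.43 (adjusted p = 4.03e-05) and *Cyp28d1* at -2.32 ± 0.31 (adjusted p = 0.000638), both low in *sei* hearts alone. For *Cyp9b1* the values were 3.09, 4.48, 4.28, 4.14 and 3.13 in *sei* hearts, against 8.08, 7.95, 7.42, 7.48 and 7.95 in Wt CS hearts. They were 8.64, 8.93 and 8.52 in *KCNQ* hearts, against 8.39, 8.35 and 8.50 in Wt PE hearts, so no *sei* array came near another group. Within run A 13 P450 genes were called.

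Glutathione S-transferases join glutathione to toxic compounds. Of 34 genes 2 were called higher and 2 lower, against 0.73% and 0.655% of all probesets. The higher ones were *GstE6* at 2.26 ± 0.34 (adjusted p = 0.00186) and *GstE1* at 2.20 ± 0.39 (adjusted p = 0.00588), and the lower ones *GstE7* at -2.71 ± 0.59 (adjusted p = 0.0271) and *GstD2* at -2.65 ± 0.60 (adjusted p = 0.0379). *GstE1* was 12.10, 11.92, 12.06, 11.26 and 11.07 in *sei* hearts, against 8.82, 9.15, 9.77, 8.99 and 8.96 in Wt CS hearts. It was 8.29, 8.73 and 8.30 in *KCNQ* hearts, against 7.91, 8.11 and 8.29 in Wt PE hearts, so that *sei* arrays lay above all others. *GstE7* was called in 16 and *GstD2* in 13 of 28 other fits, and *GstD2* was at -1.47 without the 3 accessory gland arrays. The genes of this family resemble one another, and how much signal a probeset takes from a relative was not tested. Of 35 UDP-glycosyltransferase genes *Ugt35B1* and *Ugt35C1* were called lower, against 0.655% of all probesets, and none higher; within run A *Ugt35C1* was not called (adjusted p = 0.0821), and *Ugt37A3* was at 3.79 ± 0.93 without passing (adjusted p = 0.0591).

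Odorant-binding proteins are small secreted carriers, and 4 of 47 genes were called, *Obp46a* higher and *Obp99b*, *Obp57a* and *Obp57c* lower, against 0.73% and 0.655% of all probesets. *Obp57a* was 9.15, 9.08, 9.12, 9.17 and 9.38 in *sei* hearts, against 10.88, 10.58, 9.70, 10.53 and 9.82 in Wt CS hearts. In the excision lines it was 4.61, 6.42 and 4.76 in *KCNQ* hearts, against 3.51, 3.28 and 2.79 in Wt PE hearts, far below both groups of the *sei* pair. The *sei* effect was -1.12 ± 0.32 and the *KCNQ* effect 2.06 ± 0.41 (adjusted p = 0.0636), and the difference was -3.19 ± 0.51 (adjusted p = 0.0032). *Obp99b* differed by -3.85 ± 0.66 (adjusted p = 0.00501) and *Obp57c* by -2.0 ± 0.36 (adjusted p = 0.00701). Within run A neither *Obp57a* nor *Obp57c* was called (adjusted p = 0.0928 and 0.0901), and without the 3 accessory gland arrays *Obp57c* was at -1.28. None of 165 chemosensory receptor genes was called, against 1.39% of all probesets. None had an unadjusted p under 0.05, and their differences spanned -0.91 to 0.71.

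Neprilysins leaned upward as a family, with a median difference of 1.01 over 26 genes, against -0.01 over all probesets. *Nepl12*, *Nepl18* and *Nepl15* were called higher (3 of 26, against 0.73% of all probesets) and none lower, and an unadjusted p under 0.05 was reached by 11 higher and 1 lower. Their median *sei* effect was 0.89 and their median *KCNQ* effect -0.08. The median difference was 0.99 within run A, where 8 were called. *Nepl15* was 10.59, 10.32, 10.75, 11.07 and 11.05 in *sei* hearts, against 9.04, 8.68, 9.69, 9.18 and 9.49 in Wt CS hearts. It was 9.50, 9.60 and 9.55 in *KCNQ* hearts, against 9.55, 9.53 and 9.67 in Wt PE hearts, with *sei* arrays above all others and a difference of 1.57 ± 0.32 (adjusted p = 0.0193). *Nepl18* differed by 1.97 ± 0.40 (adjusted p = 0.0178), with *sei* at 7.41 ± 0.18 and Wt CS at 6.37 ± 0.49 (SD, n = 5 each), and *KCNQ* at 6.61 ± 0.32 and Wt PE at 7.54 ± 0.54 (SD, n = 3 each). *Nepl15* and *Nepl18* were each called in 22 of 28 other fits.

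**Figure D4:**
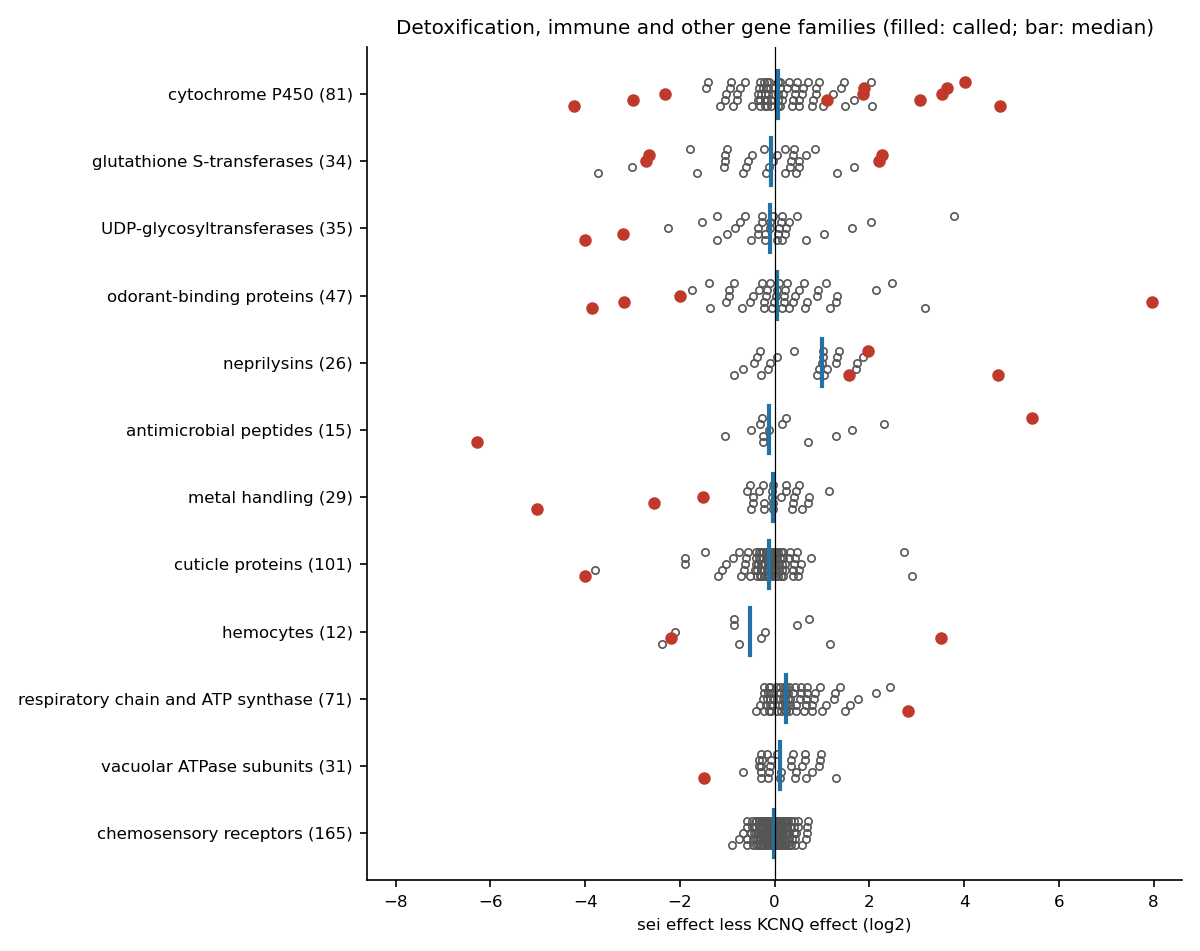
The *sei* effect less the *KCNQ* effect (log2) for each gene of 12 further lists, drawn as in the plot of muscle and metabolism genes. Called P450, transferase and odorant-binding genes lie on both sides of 0, neprilysins lie mostly to the right around a median of 1.01, and no chemosensory receptor is called.

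Immune genes split between a few large differences and many small ones. Of 15 antimicrobial peptide genes *CecB* was called higher and *Drsl4* lower (against 0.73% and 0.655% of all probesets), the median was -0.11, and *DptB* (1.29 ± 0.77), *Drs* (0.70 ± 0.79) and *Mtk* (0.16 ± 0.98) were not called. Of 12 hemocyte markers *NimC1*, a receptor for engulfing bacteria, was called higher and *Sr-CI*, a scavenger receptor, lower, against the same shares. *NimC1* was 10.15, 10.26, 10.38, 10.11 and 10.30 in *sei* hearts, against 7.54, 6.56, 7.58, 6.86 and 6.20 in Wt CS hearts. It was 10.35, 10.10 and 10.16 in *KCNQ* hearts, against 10.44, 10.38 and 10.48 in Wt PE hearts, so Wt CS hearts alone were low, and it differed by 3.52 ± 0.37 (adjusted p = 5.93e-05). *Sr-CI* was low in *sei* hearts alone and differed by -2.19 ± 0.37 (adjusted p = 0.00434). The 12 markers summed to 5140 to 6550 on *sei* arrays and 7770 to 10800 on Wt CS arrays, 5760 to 7010 on *KCNQ* arrays and 7710 to 7960 on Wt PE arrays, so both mutants lay below their controls with no overlap.

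Metal genes gave 3 calls of 29, all lower, against 0.655% of all probesets. They were *Zip102B* and the metallothionein genes *MtnD* at -1.50 ± 0.26 (adjusted p = 0.00464) and *MtnB* at -2.54 ± 0.56 (adjusted p = 0.0303), whose proteins bind copper and other metals. *MtnB* was 7.59, 8.38, 6.97, 7.19 and 7.31 in *sei* hearts, against 11.43, 11.59, 11.74, 10.67 and 10.99 in Wt CS hearts. It was 8.41, 8.55 and 7.25 in *KCNQ* hearts, against 9.11, 8.72 and 10.16 in Wt PE hearts, with Wt CS arrays highest, and was called in 15 of 28 other fits, with -1.46 without the 3 accessory gland arrays. *MtnA* was at 0.71 ± 0.25 and the ferritin genes *Fer1HCH* and *Fer2LCH* at 0.24 ± 0.22 and -0.06 ± 0.20, none called. Of 23 genes of basement membrane and integrin adhesion, *wb*, for a laminin alpha chain, was called higher at 3.75 ± 0.44 (adjusted p = 0.000172) and *ItgaPS5*, for an integrin alpha subunit, lower at -3.37 ± 0.52 (adjusted p = 0.00228), against 0.73% and 0.655% of all probesets. *wb* was 6.62, 7.22, 7.50, 7.85 and 7.66 in *sei* hearts, against 4.46, 3.79, 3.65, 3.74 and 2.96 in Wt CS hearts. It was 8.87, 8.50 and 9.07 in *KCNQ* hearts, against 9.05, 8.67 and 9.02 in Wt PE hearts, so Wt CS alone was low, and 2 dimmer probesets of *wb* gave -0.22 and 0.09. The collagen genes *vkg* and *Col4a1* were at 0.21 ± 0.29 and 0.27 ± 0.42, and *LanA* at -1.08 ± 0.42, not called.

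Many common families held no call, against 1.39% of all probesets. No gene was called among 41 cytosolic ribosomal proteins, 69 mitochondrial ribosomal proteins, 40 proteasome subunits, 13 heat shock proteins, 14 insulin pathway genes, 10 clock genes, 11 genes that clear superoxide and peroxide, 7 innexins, 13 lysozymes, 15 methuselah-like receptors and 26 Jonah and trypsin proteases; at an unadjusted p under 0.05 they held 10 higher and 12 lower together. The Jonah and trypsin list had a median difference of -0.72, and the summed intensity of 10 gut markers, 7 of them in that list, was 4230 on *KCNQ* replicate 1 and at most 1490 on all other arrays; its part in that median was not tested. Of 101 cuticle protein genes *Cpr49Ab* alone was called, lower, against 0.655% of all probesets. Of 31 vacuolar ATPase subunits, which acidify organelles, *Vha100-1* was called lower, against 0.655% of all probesets. *Vha100-1* was 7.88, 8.11, 8.19, 8.11 and 7.98 in *sei* hearts, against 9.27, 9.37, 9.88, 9.48 and 9.40 in Wt CS hearts. It was 9.60, 9.35 and 9.58 in *KCNQ* hearts, against 9.53, 9.36 and 9.44 in Wt PE hearts; the *sei* arrays stood below all others and the difference was -1.50 ± 0.24 (adjusted p = 0.00282). Of 71 respiratory chain and ATP synthase genes, the list probeset of *COX4L*, a testis form of a cytochrome oxidase subunit, was called higher, against 0.73% of all probesets. Its difference was 2.82 ± 0.65 (adjusted p = 0.0432), and it was called in 9 of 27 other fits. The dimmer *RFeSP* probeset described above was called lower at -4.43, but lists were read from the brightest probeset of a gene. *COX4L* was 6.22, 5.93, 4.44, 5.09 and 3.69 in *sei* hearts, against 1.99, 2.43, 2.50, 2.10 and 2.41 in Wt CS hearts, and 1.66, 2.89 and 2.73 in *KCNQ* hearts, against 2.01, 2.54 and 2.82 in Wt PE hearts. Every *sei* array lay above the others, and replicate 1 was the highest and replicate 5 the lowest in *sei*, as for the sperm markers below.

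Markers of other tissues moved with the groups. The 16 testis and sperm genes summed to an intensity of 5600, 3680, 2100, 3970 and 1020 on the *sei* arrays, against 1630, 1370, 417, 164 and 143 on the Wt CS arrays. They summed to 1130 to 2900 on the *KCNQ* arrays and 1300 to 1460 on the Wt PE arrays. Their median difference was 1.81 with 15 of 16 above 0. Of the 16, *ProtB*, for a protamine that packs sperm DNA, was called higher at 3.51 ± 0.76 (adjusted p = 0.0277), against 0.73% of all probesets. *ProtB* was 8.26, 7.57, 6.46, 7.31 and 5.58 in *sei* hearts, against 4.45, 4.11, 3.67, 3.53 and 3.26 in Wt CS hearts, and 3.94, 5.80 and 6.11 in *KCNQ* hearts, against 5.46, 5.86 and 5.39 in Wt PE hearts, with *KCNQ* replicate 1 level with Wt CS. It was called in 17 of 28 other fits. The part of sperm RNA in *COX4L* and other calls was not tested. The 12 accessory gland genes summed to 629, 2790 and 618 on *KCNQ* arrays and 3020, 3670 and 251 on Wt PE arrays, and to at most 502 on *sei* and 288 on Wt CS arrays; no gene of that list was called, with 1 higher at an unadjusted p under 0.05. The yolk protein gene *Yp1*, made by females, was bright in every group, with means of 12.69 in *sei*, 12.90 in Wt CS, 12.72 in *KCNQ* and 12.63 in Wt PE hearts. The 4 sex markers were not all level, with differences from -3.04 to 0.13 and 1 lower at an unadjusted p under 0.05. The heart cell markers, *Hand* among them, summed to 4220 to 4840 on *sei* arrays and 4680 to 6470 on Wt CS arrays. They summed to 5440 to 6000 on *KCNQ* arrays and 5360 to 6300 on Wt PE arrays. Their median difference was -0.11, and -0.52 within run A, and the part of heart cell content in other values was not tested. Of the markers of heart cells (10 genes), pericardial cells (9), oenocytes (5), trachea (5), neurons (14), gut (10), skeletal muscle (6) and sex (4) none was called, against 1.39% of all probesets. By unadjusted p under 0.05, 13 were lower and 0 higher, against 915 lower and 1102 higher of 18769 probesets. Among the 13 were 5 markers of neurons and 4 of gut. The marker lists left out of that count went both ways at the same threshold. Fat body and testis and sperm each had 3 higher and 0 lower, and accessory gland 1 higher and 0 lower. Hemocytes and ovary and germline each had 1 higher and 4 lower, and Malpighian tubule 1 higher and 1 lower. Of 6 Malpighian tubule markers *Ugt35B1* was called lower, against 0.655% of all probesets.

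**Figure D5:**
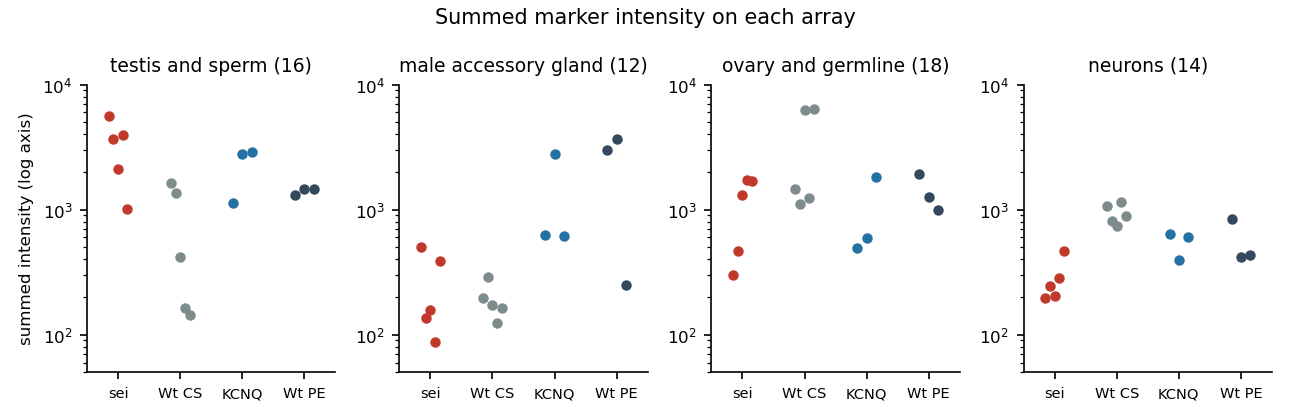
Summed intensity (linear units on a log axis) of the marker genes of 4 tissues on each array, by group, with the number of genes in brackets. Sperm markers are highest on *sei* arrays 1, 2 and 4 and lowest on Wt CS arrays 3, 4 and 5, accessory gland markers are highest on Wt PE arrays 1 and 2 and *KCNQ* array 2, and neuronal markers are lower on all *sei* arrays than on all Wt CS arrays.

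Of 18 ovary and germline genes *bam*, which starts germ cell differentiation, was called lower at -2.29 ± 0.38 (adjusted p = 0.00432), against 0.655% of all probesets. *bam* was at 2.22 ± 0.32 in *sei* hearts and 4.38 ± 0.54 in Wt CS hearts (SD, n = 5 each). Its neighbours *CG11854* and *Nup37* on chromosome 3R were called too, at -4.77 ± 0.82 and -2.28 ± 0.45. In the order of measured genes along the chromosomes, 10 stretches held neighbouring called genes, 21 genes in all, and 4 of the stretches held both signs; these were looked for after the values were known. The paralogues *Cyp4p1* and *Cyp4p2* differed by 3.64 ± 0.50 and -3.0 ± 0.65, *GstE6* and *GstE7* by the values above, and the ecdysteroid kinase-like genes *CG11893* and *CG13658* by 7.66 ± 0.40 and -1.91 ± 0.30. *CG31288* and *CG13659* of the same family were both lower, at -3.86 ± 0.62 and -3.19 ± 0.56. Of 11889 genes placed on a chromosome 216 were called (1.82%), with 73 of 2974 on 3R (2.45%), 48 of 2428 on 2R (1.98%), 43 of 2344 on 3L (1.83%), 36 of 2205 on 2L (1.63%), 3 of 65 on chromosome 4 (4.62%) and 13 of 1873 on X (0.694%).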

How the data were processed

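Hearts of *sei*, Wt CS, *KCNQ* and Wt PE flies were profiled on Affymetrix Drosophila Genome 2.0 arrays. The authors checked array quality with affyQCReport and made the deposited intensities by RMA in AltAnalyze (versions not given in the sources used here); the values are linear and normalized between arrays, and log2 was taken here. RMA's quantile step removes any shift shared by all probesets, and dim probesets compress large changes.

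Of 18952 probesets 183 platform controls were left out. The 4 groups were fitted as means for each probeset with limma 3.58.1 in R 4.3.3 (12 residual and 3.677 prior degrees of freedom), and p-values were adjusted over 18769 probesets by Benjamini-Hochberg, with calls at an adjusted p under 0.05. Tables were made with Python 3.11.15 and pandas 2.3.3. The *sei* pair rests on 5 arrays a group and the *KCNQ* pair on 3, and this number of arrays limits the precision. On simulated data of the difference of effects over 18769 probesets, 62 of 100 changes of log2 size 2, 6 of 100 of size 1 and 8 of 18569 unchanged probesets were called. For each probeset that simulation drew independent normal noise with the same SD in all groups, and it placed changes in *sei* only. It lacks the unequal scatter, the array runs and the repeated sample codes of these arrays.

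Gene names came from the platform annotation, updated through a RefSeq gene table that was used only for names, chromosomes and neighbours: 13647 probesets had 1 symbol, 402 several and 4720 none, and 13544 of the first matched. Named genes were the 14 largest rises and the 14 largest falls with 1 symbol and the same sign within run A, up to 4 called genes of each list by smallest p, and the targeted genes. A list gene with several probesets was read from the one with the highest mean intensity. The members and the 48 lists (34 of function, 14 of markers) were chosen with earlier results of these data known. Alternatives were other scalings, priors, weights and filters, array run, repeated sample codes, the replicate number as a block, and leaving out arrays. Sequences were not used here. Sample groups came from the labels.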

Additional observations from a re-analysis of the deposited data

Results flagged for a closer look

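An array far from the others of its group was found in 6 of 140 groups of 5 arrays examined, and chance gives about 1 in 20. These were *lncRNA:CR30121* on *sei* replicate 5 (2.05), *CG11854* on *sei* replicate 3 (4.36), *Ugt35B1* on Wt CS replicate 1 (4.14), *Obp99b* on Wt CS replicate 3 (12.62), the summed sex markers on Wt CS replicate 5 (32200) and the summed skeletal muscle markers on Wt CS replicate 3 (2670). Each was the highest of its group.

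The 55 named genes are here because the effects of the 2 mutations differed by limma's test of the difference itself. With *sei* hearts apart, the difference was 7.97 for *Obp46a*, 5.67 for *lectin-24A*, 2.82 for *COX4L*, 2.20 for *GstE1* and 1.57 for *Nepl15*. On the negative side it was -7.46 for *CG4259*, -6.32 for *lncRNA:CR30121*, -6.28 for *Drsl4*, -5.02 for *Zip102B*, -4.90 for *CG15239*, -4.43 for *RFeSP*, -4.23 for *Cyp9b1* and -4.21 for *CG7203*. Smaller falls of this kind were -2.71 for *GstE7*, -2.65 for *GstD2*, -2.32 for *Cyp28d1*, -2.19 for *Sr-CI*, -1.68 for *por*, -1.50 for *MtnD*, -1.50 for *Vha100-1* and -1.46 for *wls*.

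With Wt CS hearts apart, it was 7.12 for *Map205*, 6.18 for *Acbp2*, 5.30 for *Elovl7*, 4.98 for *Arpc1*, 4.82 for *CTCF*, 4.77 for *Cyp6a2*, 4.01 for *Cyp309a2*, 3.75 for *wb*, 3.52 for *NimC1*, 3.51 for *ProtB*, 2.26 for *GstE6* and 1.86 for *AkhR*. Negative values in that class were -4.77 for *CG11854*, -4.36 for *CG31760*, -3.85 for *Obp99b*, -3.37 for *ItgaPS5*, -2.54 for *MtnB*, -2.29 for *bam* and -1.89 for *gish*.

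With *KCNQ* hearts apart, it was 6.69 for *CG3397*, 5.43 for *CecB*, 4.71 for *Nepl12*, -4.53 for *CG8539*, -4.0 for *Ugt35B1* and -3.20 for *Ugt35C1*. With Wt PE hearts apart, it was -4.76 for *lncRNA:CR42862*, -4.74 for *CG33229* and -2.0 for *Obp57c*. With *sei* and Wt PE on one side, it was 7.66 for *CG11893*, 6.41 for *CG5246*, 5.29 for *TotB*, 1.97 for *Nepl18* and -4.0 for *Cpr49Ab*, and *Obp57a*, with *sei* and Wt CS on one side, was at -3.19.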

How the results depend on the processing

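Against 260 called differences, the count was 459 with array run as a covariate (239 of the 260 among them), 495 with arrays of the same sample code averaged (253), and 2988 with sample weights (260). Leaving out 1 array at a time gave 179 (without Wt PE replicate 2, *KCNQ* replicate 1 or *KCNQ* replicate 3) to 425 (without *sei* replicate 5, with 257 of the 260). In 2 alternatives added after the data were seen, it was 712 without the *sei* and Wt CS arrays of run A (237) and 88 without the 3 arrays highest in accessory gland transcripts (70), a fit with a single Wt PE array, assumed to vary like the other groups. Run A alone, the other scalings, the priors, the filter on dim probesets and the fold limit gave 209 to 336. The cause of these shifts was not tested. All 260 kept their sign wherever they were tested.

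Of 55 named called genes, 23 passed in every alternative and none changed sign; 31 of them lost the call without the 3 accessory gland arrays and 11 within run A. Of 1344 recomputed list medians, 17 moved by more than the spread. With the replicate number as a block 319 were called, 233 of them among the 260; residuals of arrays with the same number correlated at -0.04 to 0.53, with 3 of 8 pairs over 0.1, all 3 of them *sei* and Wt CS arrays of the same run, so number and run cannot be told apart there and the numbers were not taken as pairs. A mean log2 of at least 5 was reached by 7167 of 18769 probesets, and the filter at that level tested 193 of the 260 and called all of them.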

Other observations

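For 7 of the 260 neither effect was called by itself although their difference was. Chosen after their values were seen, *osy*, for a transporter of the ABC family, had a *sei* effect of 0.60 and a *KCNQ* effect of -3.09, with means of 5.47 in *sei*, 4.87 in Wt CS, 2.10 in *KCNQ* and 5.19 in Wt PE hearts. *CG11790* was at 0.47 and -1.69 for the same 2 effects. *GILT3*, of a family of thiol reductases, was at -0.46 and 1.25, and *CG32373* at -0.56 and 1.39. Each of these differences was called (limma, adjusted p = 0.0207 for *osy*, 0.022 for *CG11790*, 0.0377 for *GILT3* and 0.00877 for *CG32373*).

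Oenocytes are hydrocarbon-making cells beneath the cuticle. Their 5 marker genes summed to 16900 to 17800 on *sei* arrays and 20900 to 24600 on Wt CS arrays, without overlap, and to 19500 to 22000 on *KCNQ* arrays and 21100 to 22800 on Wt PE arrays. All 5 had a difference below 0, with a median of -0.58, and none was called.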
